A study of Mus musculus with 26 samples.

Results

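Common lymphoid progenitors (CLP) were compared with pre-granulocyte-macrophage progenitors without signal of the Gata1 reporter (PreGM GFP-), the lymphoid and the granulocyte-monocyte branch that both follow lymphoid-primed multipotent progenitors (LMPP). The comparison took all arrays of both labels, 3 of each, which are 6 of the 26 arrays of the series, and every probe set that names 1 gene. Of 35556 probe sets, 21789 did so, and they measured 19938 genes. All cells came from bone marrow of mice 8 to 15 weeks old hemizygous for the reporter transgene (Gata1-EGFP Tg/+), in which enhanced green fluorescent protein reports Gata1 activity, so both groups carry it. CLP were sorted as negative for lineage markers and B220, low for Sca1 and Kit, and positive for Flt3 and the IL-7 receptor, and their label gives no reporter gate. PreGM GFP- were lineage-negative, Kit-positive and Sca1-negative cells that lacked CD41, Fc gamma receptors II and III, CD150, CD105 and reporter signal. LMPP, 4 arrays given for reference, were lineage-negative, Kit- and Sca1-positive, CD150-negative and reporter-negative cells with high Flt3. The labels do not say whether arrays of a group came from separate mice or pools, so the p-values speak only to variation among these arrays, which may be technical.

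As background, LMPP hold lymphoid and granulocyte-monocyte potential with little potential for red cells and platelets. In the lymphoid branch, signalling through the IL-7 receptor and the transcription factors E2A, EBF1 and PAX5 set up the B cell programme, and the RAG1 and RAG2 proteins cut antigen receptor genes for rearrangement. In the granulocyte-monocyte branch, C/EBP alpha and PU.1 act on genes of granule proteases and of receptors for myeloid growth factors, and IRF8 favours monocytes and dendritic cells over neutrophils. A CLP gate of this kind is known to hold cells at several steps between multipotent and B-committed cells.

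CLP were higher than PreGM GFP- in 6 of 22 genes of antigen receptor rearrangement, 7 of 21 lymphoid transcription factors and 9 of 17 dendritic cell genes. They were lower in 6 of 19 primary granule genes and in the receptor genes Kit and Csf3r. Some genes of stem cells, ribosome production and sugar breakdown were lower too. Kit was part of both sort gates, so its difference is not independent of the sort. The lists were chosen with earlier results of these data known, so their counts describe these genes and are not a test. At an adjusted p under 0.05 (limma, Benjamini-Hochberg over all genes) 305 of 19938 genes were called, 1.53% of them. In CLP 148 (0.742%) were higher and 157 (0.787%) lower. Centring every array on its median gave 110 higher against 178 lower genes (38.2% of calls higher instead of 48.5%). The difference was at least 2-fold on the signal scale for 87 of the higher and 100 of the lower genes. The 3 CLP arrays lay apart from the 3 PreGM GFP- arrays in 140 and 154 of the called genes, against 987 and 1038 of all genes (4.95% and 5.21%). The calls rest on these same arrays, so this separation is no further support for them. The 24 genes of largest difference named below were taken only from called genes with arrays apart. For these genes, among them Rag1, Rag2, Il7r and Siglech, the lack of overlap was a condition of the choice. The median difference over all genes was 0.03 log2 units. In the same fit 1.57% of genes were called between CLP and LMPP (0.828% higher and 0.747% lower in CLP) and 0.873% between PreGM GFP- and LMPP (0.396% higher and 0.476% lower in PreGM GFP-), 2 comparisons that share the LMPP arrays. Signals under 6.61, the median of all values, were not shown to exceed background. The CLP mean was under that level for 41 of the genes called lower, and the PreGM GFP- mean for 72 of those called higher; differences of these genes are of signal and are given on the log2 scale, with no fold.

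Some arrays stood apart within their group. The correlation between arrays over all genes was 0.963 to 0.974 within CLP, 0.95 to 0.976 within PreGM GFP- and 0.946 to 0.967 between the groups. CLP array 3 was more than 1 log2 unit below both other CLP arrays in 16 of the 148 genes called higher, against 144 of all 19938 genes. Array 1 was so in 0 and array 2 in 2 of the 148, against 14 and 137 of all genes. PreGM GFP- arrays 1 and 2 had the widest spread around their group mean, an SD over genes of 0.289 and 0.316 log2 units. Without PreGM GFP- array 3 the genes called higher numbered 98, and without PreGM GFP- array 1 those called lower numbered 99. Fitted on the 6 arrays alone, 35 genes were higher and 57 lower. Among genes named below, Ebf1, Pax5, Ikzf1, Blk, Cd28, Irf8, Itgax, Cd209a, Cd300c and H2-Ob were not called in that fit. Kit, Myc, Prtn3, Tfec, Cpa3, Kmo, Gbp8 and Atxn1 were not called in it either. The same held for every gene whose call is given below as lost without a single array. Xist, the RNA that silences an X chromosome in female cells, was at 11.28, 10.84 and 10.31 in CLP and at 10, 10.82 and 10.51 in PreGM GFP- and was not called, nor were the 3 Y-linked genes measured. In bulk samples, fewer cells of a type and less RNA per cell cannot be told apart.

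**Figure D1:**
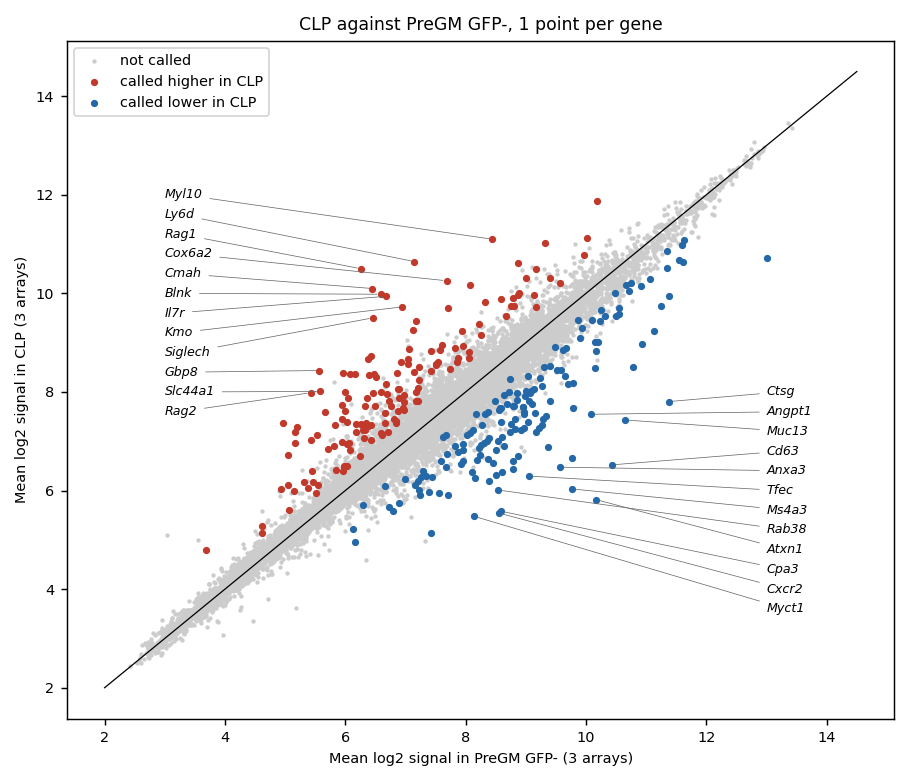
Mean log2 signal of each of the 19938 genes in PreGM GFP- (x axis, 3 arrays) and CLP (y axis, 3 arrays), with genes called higher in CLP in red, genes called lower in blue and the line of equality in black. Rag1 at 10.50 against 6.26 and Ctsg at 7.80 against 11.37 are among the named genes far from the line.

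Of 10 measured sort marker genes 2 were higher in CLP, 1 was lower and 7 were not called, 30.0% called against 1.53% of all genes. The gates chose cells by such markers, so these differences are not independent of the sort. Itga2b, Slamf1, Eng and Fcgr2b, genes of markers that PreGM GFP- lacked by gate, were among those not called. Il7r, the gene of the IL-7 receptor alpha chain, gave 9.74, 9.72 and 10.36 in CLP and 7.23, 6.91 and 5.91 in PreGM GFP-. All CLP arrays lay above all PreGM GFP- arrays, a 9.56-fold difference (3.26 ± 0.29 log2 units, SE, adjusted p = 3.58e-07). Flt3, the gene of the FLT3 ligand receptor, was 2.15-fold higher in CLP (adjusted p = 0.0375), but this call was lost without CLP array 1 or 3 or PreGM GFP- array 2 or 3. LMPP had a mean Flt3 signal of 11.44, beside 11.13 in CLP and 10.02 in PreGM GFP-. Kit, the stem cell factor receptor gene, was 3.05-fold lower in CLP (adjusted p = 0.00207). Its CLP signals of 7.63, 7.79 and 9.10 met those of PreGM GFP-, 10.16, 9.07 and 10.13, at CLP array 3 and PreGM GFP- array 2. Fcgr3, an Fc gamma receptor gene, was not called at a difference of -0.90 (adjusted p = 0.0774). Gata1 itself was at 6.41 in CLP, below the median signal, and 6.73 in PreGM GFP- and was not called (adjusted p = 0.675). Of the 11 marker genes listed, Ly6a, which encodes Sca1, is not analysed here.

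The promoters of 5 genes called in the comparison are shown before their values, 2 of the rearrangement and pre-B receptor genes and 3 of the primary granule genes. They are examples and do not stand for their lists. Other called genes of these lists, such as Rag2, Blnk, Dntt, Mpo and Ctsg, are not shown. Each sequence holds the 250 bases before the gene start in RefSeq, build GRCm38.p6, on the gene's strand. Capitals mark matches, on either strand, to any of 7 motifs searched: CAGCTG and CAGGTG of E proteins, TGTGGT of RUNX factors, GGAAGT of ETS factors, TTGCNNAA of C/EBP factors, GAAANNGAA of IRF factors and TCCCNNGGG of EBF factors. Rag1 encodes the catalytic recombinase subunit and Igll1 a chain of the surrogate light chain of the pre-B receptor, and both were higher in CLP.
Rag1, chr2:101649533-101649782, minus strand: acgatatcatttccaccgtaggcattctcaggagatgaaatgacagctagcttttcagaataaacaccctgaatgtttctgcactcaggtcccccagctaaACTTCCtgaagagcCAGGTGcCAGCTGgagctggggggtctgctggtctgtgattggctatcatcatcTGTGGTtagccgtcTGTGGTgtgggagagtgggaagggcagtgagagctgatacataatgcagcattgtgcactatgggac
Igll1, chr16:16863986-16864235, minus strand: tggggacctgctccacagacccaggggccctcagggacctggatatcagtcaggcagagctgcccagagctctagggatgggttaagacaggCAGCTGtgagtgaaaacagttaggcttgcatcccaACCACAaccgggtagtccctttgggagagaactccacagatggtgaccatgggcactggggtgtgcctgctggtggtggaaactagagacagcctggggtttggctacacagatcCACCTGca
Ms4a3, a membrane protein gene of granulocyte-monocyte progenitors, and the neutrophil serine protease genes Elane and Prtn3 were lower in CLP.
Ms4a3, chr19:11640852-11641101, minus strand: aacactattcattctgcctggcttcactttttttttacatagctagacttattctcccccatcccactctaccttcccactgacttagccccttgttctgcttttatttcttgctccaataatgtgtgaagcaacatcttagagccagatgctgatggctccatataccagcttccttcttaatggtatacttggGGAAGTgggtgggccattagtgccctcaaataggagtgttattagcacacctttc
Elane, chr10:79886062-79886311, plus strand: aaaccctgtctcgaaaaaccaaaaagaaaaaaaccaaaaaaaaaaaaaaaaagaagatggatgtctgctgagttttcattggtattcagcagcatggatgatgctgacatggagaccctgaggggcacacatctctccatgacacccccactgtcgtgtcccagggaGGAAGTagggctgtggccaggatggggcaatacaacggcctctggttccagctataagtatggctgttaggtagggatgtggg
Prtn3, chr10:79879417-79879666, plus strand: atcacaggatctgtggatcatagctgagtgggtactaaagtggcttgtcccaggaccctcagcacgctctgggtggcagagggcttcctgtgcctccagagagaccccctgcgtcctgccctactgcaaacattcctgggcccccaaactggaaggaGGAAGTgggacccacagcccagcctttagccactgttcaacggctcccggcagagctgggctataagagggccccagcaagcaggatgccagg

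A match on the opposite strand is printed as its reverse complement. The Rag1 window held 5 matches: GGAAGT on the opposite strand at 149 bases before the start, CAGGTG at 135, CAGCTG at 128, and TGTGGT at 81 and 67. The Igll1 window held CAGCTG at 158 bases before the start and, both on the opposite strand, TGTGGT at 123 and CAGGTG at 8. The Ms4a3, Elane and Prtn3 windows each held 1 match, GGAAGT, at 55, 83 and 93 bases before the start. A promoter was listed for 119 of the 148 genes higher in CLP, 125 of the 157 lower and 15563 of all genes. GGAAGT was in 34.4% of the promoters of genes lower in CLP, 21.0% of those higher and 20.8% of all. CAGGTG was in 24.4% of the higher, 19.2% of the lower and 16.8% of all promoters, and TGTGGT in 22 of the 119 higher, 19 of the 125 lower and 1873 of all 15563. CAGCTG was in 10.1%, 11.2% and 12.3%, TTGCNNAA in 7.56%, 8.0% and 8.63%, GAAANNGAA in 6.72%, 9.6% and 6.85%, and TCCCNNGGG in 5.04%, 3.2% and 6.09%. These shares describe letters in a window and were not tested.

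Of 22 measured genes of antigen receptor rearrangement and the pre-B receptor, 6 were higher in CLP and 0 lower, a share of 27.3% against 1.53% of all genes, with a median difference of 0.34. Rag1 gave 9.96, 10.43 and 11.11 in CLP and 6.24, 6.70 and 5.84 in PreGM GFP-. The groups were far apart, by 4.24 ± 0.24 (SE) log2 units (adjusted p = 1.98e-10). The PreGM GFP- mean was below the median signal, and LMPP were at 6.18. Rag2, whose protein is the partner of RAG1, gave 7.82, 7.89 and 8.24 in CLP and 5.51, 5.34 and 5.43 in PreGM GFP-, again with no overlap and a PreGM GFP- mean below the median signal. The difference was 2.56 ± 0.20 log2 units (SE, adjusted p = 4.06e-08). In the 5 groups other than these and LMPP, mean Rag1 lay between 5.55 and 5.78.

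Dntt encodes terminal transferase, which adds bases at the joints of rearranged receptor genes. It gave 11.63, 11.75 and 12.24 in CLP and 10.54, 10.16 and 9.85 in PreGM GFP-, a 3.23-fold difference with no overlap (adjusted p = 2.80e-05). LMPP had a mean of 11.44, from which CLP were not called to differ (adjusted p = 0.448) while PreGM GFP- were lower (adjusted p = 0.00116). Blnk, an adaptor that carries the pre-B receptor signal, gave 9.74, 9.92 and 10.29 in CLP and 7.16, 6.97 and 5.63 in PreGM GFP-, a mean of which is below the median signal. It differed by 3.39 ± 0.25 log2 units (SE, adjusted p = 1.78e-08).

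The surrogate light chain genes did not separate the groups in the same way. Igll1 was 2.04-fold higher in CLP (adjusted p = 0.0125), a call lost without CLP array 3 or PreGM GFP- array 3, and the groups overlapped. Vpreb1, its partner chain, named here after its values were seen, gave 11.75, 9.74 and 12.71 in CLP and 11.59, 11.81 and 9.14 in PreGM GFP-. Each group held arrays high and low, and it was not called (0.55 ± 0.98 log2 units, SE, adjusted p = 0.956). The LMPP arrays ran from 6.10 to 9.12 in this gene. Xrcc6, a DNA end-joining gene of all cells, was 1.76-fold higher (adjusted p = 0.0418) and lost the call without any 1 of CLP arrays 1 to 3 or PreGM GFP- array 2 or 3. Without CLP array 3 or PreGM GFP- array 3, 4 genes of the list were called.

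**Figure D2:**
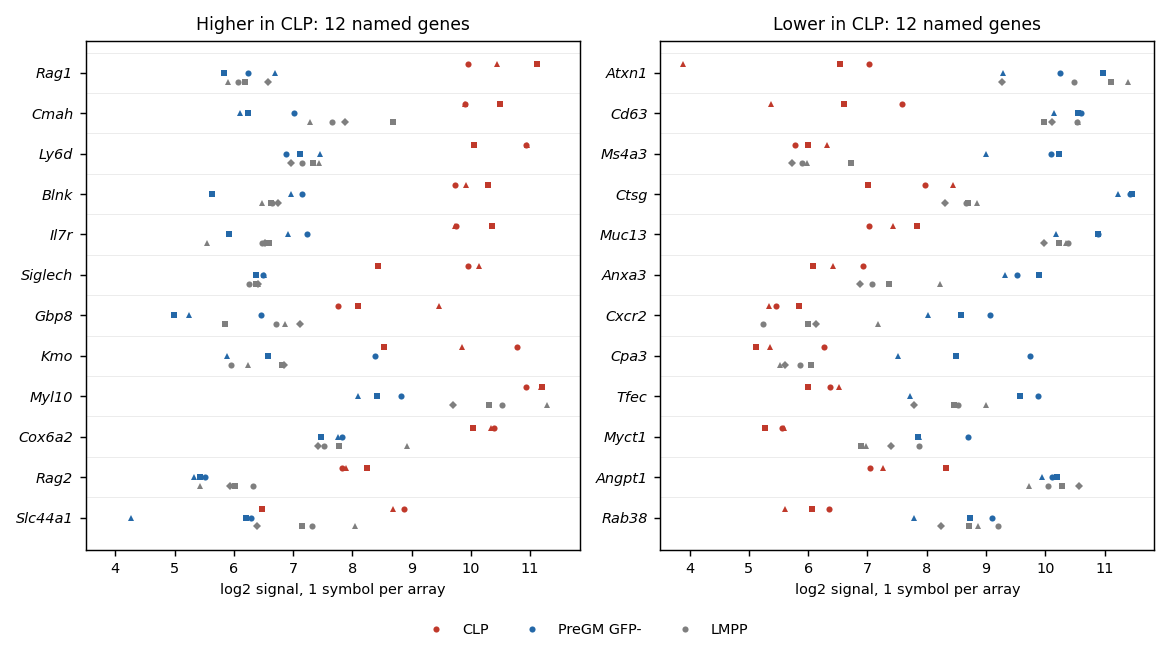
Log2 signal (x axis) of the 24 genes of largest difference, 12 each way, in each array of CLP (red), PreGM GFP- (blue) and LMPP (grey), where circles, triangles, squares and diamonds are arrays 1, 2, 3 and 4. Only called genes whose red symbols lie apart from the blue ones were taken. The smallest gap is in Kmo (8.54 in CLP array 3 against 8.38 in PreGM GFP- array 1).

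Lymphoid transcription factors were higher in CLP in 7 of 21 measured genes and lower in 0, 33.3% against 1.53% of all genes, and their median difference was 0.48. The list leaves out Ikzf2, a gene of the Ikaros family, which was lower in CLP and is given in the last paragraph. Ebf1, a first factor of B cell specification, gave 8.11, 7.17 and 9.81 in CLP and 6.31, 6.77 and 5.13 in PreGM GFP-. The groups did not overlap, although CLP array 2 and PreGM GFP- array 2 differed by less than the range within CLP. The difference was 2.29 ± 0.41 log2 units (SE, adjusted p = 0.00233), from a PreGM GFP- mean below the median signal. Pax5, which holds cells in the B lineage, gave 7.93, 7.65 and 8.60 in CLP and 6.75, 7.12 and 6.77 in PreGM GFP-, a 2.27-fold difference (adjusted p = 0.000139). In both genes CLP array 3 was the highest array.

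Bcl11a, a zinc finger factor needed for lymphoid development, was 2.49-fold higher (adjusted p = 2.65e-06). Its CLP arrays gave 10.43, 10.58 and 10.46 and its PreGM GFP- arrays 9.19, 8.93 and 9.41, with LMPP at 10.31. CLP were not called to differ from LMPP in Bcl11a (adjusted p = 0.736), whereas PreGM GFP- were lower (-1.14 log2 units, adjusted p = 2.06e-05). Ikzf1, the Ikaros gene, was 1.88-fold higher (adjusted p = 0.00193). The E protein gene Tcf4, Foxp1 and Bach2 were called at adjusted p = 0.0352, 0.0449 and 0.0375. The Tcf4 call was lost without any 1 of the CLP arrays or PreGM GFP- array 1 or 2. That of Foxp1 was lost without CLP array 2 or 3 or any 1 of the PreGM GFP- arrays. Bach2, below the median signal in both groups, lost its call without any 1 of the CLP arrays or PreGM GFP- array 1. The E protein genes Tcf3 (0.21) and Tcf12 (0.24) were not called, nor were Foxo1 (0.59), Lef1 (0.41) and Mef2c (0.96). The smallest adjusted p among them was 0.0739. Without CLP array 2, CLP array 3 or PreGM GFP- array 1, 4 of the list were called.

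Surface genes of the B lineage showed 1 large difference. Ly6d, which marks the B-biased part of the CLP gate, gave 10.93, 10.95 and 10.06 in CLP and 6.88, 7.45 and 7.12 in PreGM GFP-. That is 11.3-fold with wide separation (3.50 ± 0.20 log2 units, SE, adjusted p = 1.98e-10), and LMPP at 7.22 resembled PreGM GFP-. Blk, a B cell kinase gene, was 0.91 log2 units higher, from a PreGM GFP- mean below the median signal (adjusted p = 0.000753). Ly6d and Blk were the 2 of 20 listed genes called. Without any 1 CLP array, or without PreGM GFP- array 2, 3 were.

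Among T, NK and innate lymphoid genes 5 of 26 were higher and 0 lower, 19.2% against 1.53% of all genes, with a median difference of 0.07. Il18r1, an IL-18 receptor chain gene, gave 8.83, 8.37 and 8.79 in CLP and 6.76, 5.92 and 6.45 in PreGM GFP-, whose mean is below the median signal. It differed by 2.28 log2 units with no overlap (adjusted p = 0.000291). Cd28, the T cell costimulator gene, was 1.49 higher (adjusted p = 1.72e-05). Notch1, which directs T lineage entry in the thymus, was 2.08-fold higher (adjusted p = 0.0247), with CLP array 3 at 9.54 above the other CLP arrays at 8.10 and 8.15; the call was lost without that array or any 1 of the PreGM GFP- arrays. Cd7 and Klrd1 ran the other way: Cd7 was at 9.48, 9.19 and 7.15, and Klrd1 at 8.53, 8.14 and 6.16 in CLP arrays 1, 2 and 3. Their calls (adjusted p = 0.0202 and 0.0471) were lost without CLP array 1 or 2 or PreGM GFP- array 2 or 3. The count fell to 3 without CLP array 1 or 2 and to 2 without PreGM GFP- array 2 or 3. Among the 16 genes of lymphoid cytokine receptors and their signalling, 2 were called (12.5% against 1.53% of all genes), Il7r and Flt3, and the median was 0.01. Both encode markers by which CLP were sorted, so these calls are not independent of the sort. Of 17 homing receptor genes 2 were higher and 1 lower, 17.6% against 1.53% of all genes. Higher were the integrin chain gene Itgb2 (0.99) and the gut-homing receptor gene Ccr9 (0.93, below the median signal in both groups). The neutrophil receptor gene Cxcr2 was lower. Without CLP array 1 or PreGM GFP- array 3, 0 homing receptor genes were higher, and without any other single array 1 was.

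**Figure D3:**
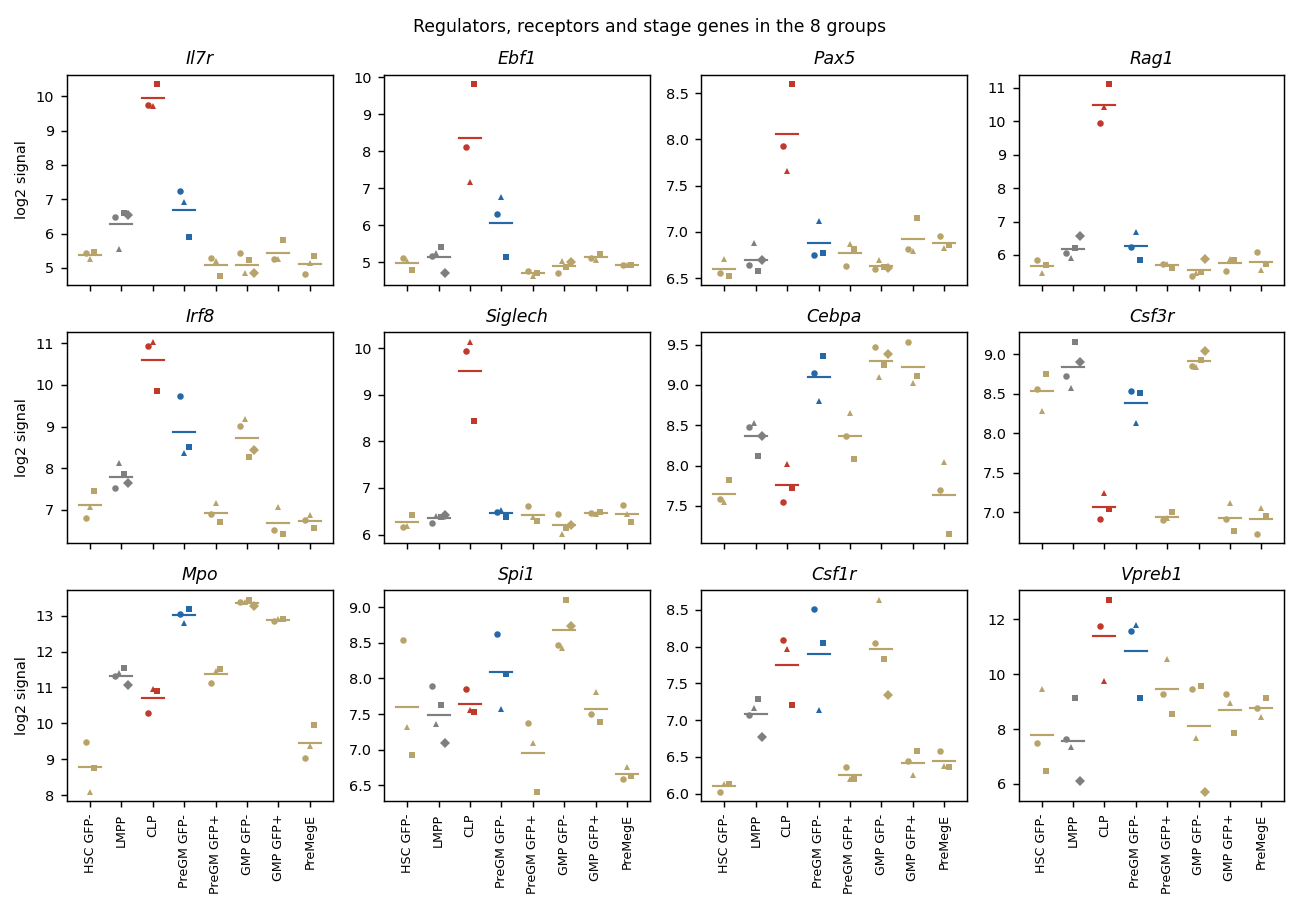
Log2 signal (y axis) of 12 genes in every array of the 8 groups, with symbols as array numbers and bars at the group mean; CLP are red, PreGM GFP- blue, LMPP grey and the other 5 groups tan. In Il7r, Rag1 and Siglech every CLP array lies above every other array, whereas Mpo and Cebpa are higher in PreGM GFP- (Mpo 13.04, 12.79 and 13.19) than in CLP (Mpo 10.29, 10.96 and 10.91).

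Dendritic cell genes had the largest share of calls among the lists, which were chosen with earlier results of these data known. Of 17 measured genes 9 were higher in CLP and 0 lower, 52.9% against 1.53% of all genes, with a median difference of 0.93. Siglech, a surface receptor gene of plasmacytoid dendritic cells, gave 9.95, 10.13 and 8.43 in CLP and 6.49, 6.52 and 6.37 in PreGM GFP-. The groups did not overlap, and the PreGM GFP- mean was below the median signal, as was that of LMPP at 6.36. The difference was 3.05 ± 0.26 log2 units (SE, adjusted p = 1.28e-07), and CLP array 3 was the lowest of its group. Irf8, a transcription factor gene of dendritic cells and monocytes, gave 10.93, 11.03 and 9.86 in CLP and 9.72, 8.37 and 8.52 in PreGM GFP-, a 3.34-fold difference (adjusted p = 0.00367). LMPP were lower than CLP in Irf8, at 7.79 (adjusted p = 3.71e-06).

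Cox6a2, a subunit gene of cytochrome c oxidase that plasmacytoid dendritic cells also express, was 5.95-fold higher (adjusted p = 1.09e-06), at 10.39, 10.34 and 10.04 in CLP and 7.82, 7.76 and 7.47 in PreGM GFP-. Itgax, which encodes CD11c, gave 8.25, 8.57 and 6.83 in CLP and 6.18, 6.48 and 6.42 in PreGM GFP- (1.52 log2 units, adjusted p = 0.00136). Cd300c was 2.45-fold (adjusted p = 0.00606) and Cd209a 1.08 log2 units higher (adjusted p = 0.00687), and in both CLP array 3 was again the lowest; the Cd300c call was lost without CLP array 1 or 2. Ly6d, Irf8 and Ccr9 stand in this list and in others. The 8 members not called included Clec9a and Id2, named after their values were seen. Clec9a, a receptor gene of conventional dendritic cells, gave 9.14, 7.21 and 4.74 in CLP and 7.24, 4.39 and 5.62 in PreGM GFP-, a mean below the median signal, and the groups overlapped (1.28 ± 0.66, SE, adjusted p = 0.599). Id2, an inhibitor of E proteins, differed by -1.14 (adjusted p = 0.174), and the other 6 differed by 0.11 to 0.80. Averaged over the list, CLP arrays 1, 2 and 3 were at 8.16, 8.02 and 7.21, PreGM GFP- arrays at 6.81, 6.79 and 6.59, and LMPP arrays at 6.49 to 6.61. Without CLP array 3 the count was 11, and without CLP array 1 it was 6. Of 10 genes of MHC class II presentation, 1 was called, H2-Ob, a 2.83-fold higher regulator of peptide loading (adjusted p = 0.000414).

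CLP array 3 was the lowest CLP array in 16 of 24 monocyte and macrophage genes, by more than 1 log2 unit in 8, and the highest in 5. Over all 19938 genes it was the lowest in 27.2%, by more than 1 log2 unit in 144 genes, and the highest in 42.9%. Of the 24 genes 8 were below the median signal in both groups. By limma 1 of the 24 was called, 4.17% against 1.53% of all genes. This was Mpeg1, a pore-forming protein gene of macrophages and dendritic cells, 3.26-fold higher in CLP (11.20, 11.44 and 10.40 against 9.75, 9.19 and 8.98, adjusted p = 0.0259). The call was lost without CLP array 1 or 2 or PreGM GFP- array 2 or 3. The median difference of the list was -0.01. The list mean was 8.13, 8.08 and 7.23 in CLP arrays 1, 2 and 3, 7.85, 7.95 and 7.86 in PreGM GFP-, and 7.06 to 7.18 in LMPP. Named after their values were seen, Ly86 gave 10.93, 10.81 and 9.13 in CLP and Ms4a6c 10.90, 11.10 and 7.56. The PreGM GFP- arrays gave 9.79, 10.10 and 10.07 in Ly86 and 10.67, 10.99 and 10.63 in Ms4a6c. CLP arrays 1 and 2 lay above the PreGM GFP- arrays in Ly86 and among or above them in Ms4a6c, and CLP array 3 lay below them in both. Ccr2, a monocyte chemokine receptor gene, gave 9.01, 8.66 and 6.02 in CLP against 9.14, 8.56 and 8.12. F13a1, the coagulation factor XIII gene of monocytes, gave 9.33, 9.69 and 6.93 against 9.87, 10.54 and 10.15 (-1.54, adjusted p = 0.0656). Without CLP array 1 or 2 the list held 0 genes higher and 1 lower. The part of monocyte or dendritic cell RNA in the other differences was not tested.

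**Figure D4:**
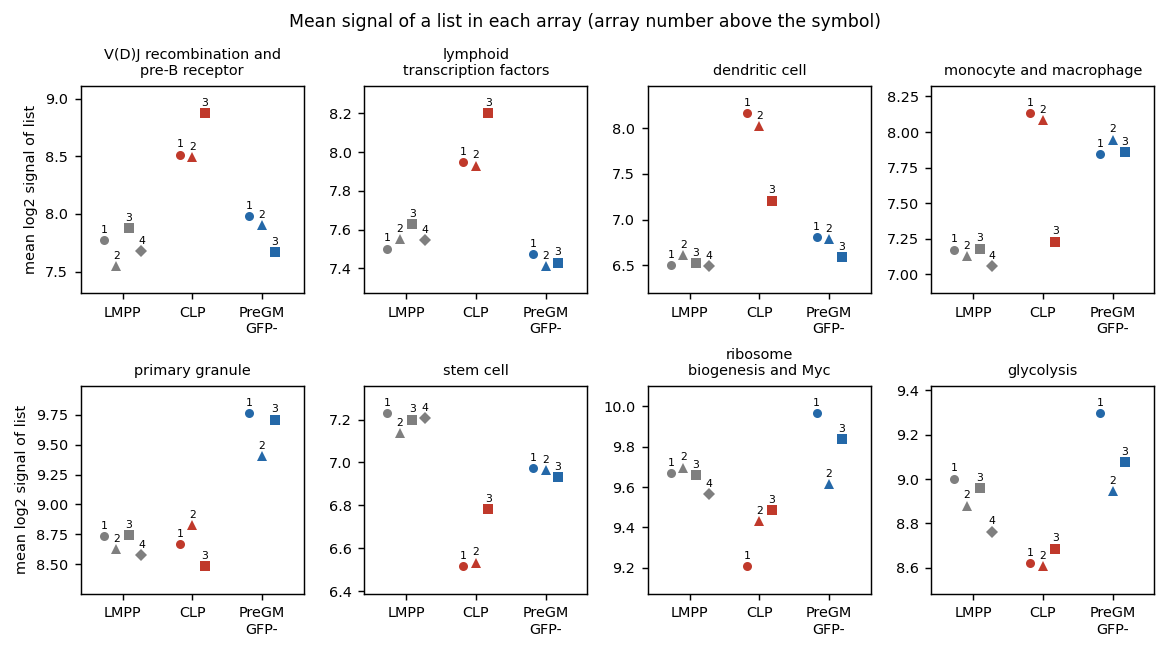
Mean log2 signal (y axis) of 8 gene lists in each array of LMPP (grey), CLP (red) and PreGM GFP- (blue), with the array number above each symbol. In the dendritic list the CLP arrays are at 8.16, 8.02 and 7.21 and in the monocyte list at 8.13, 8.08 and 7.23, with array 3 the lowest in both; it is the highest CLP array in the lists of rearrangement genes (8.88) and lymphoid transcription factors (8.20).

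Primary granule genes of neutrophil precursors were lower in CLP in 6 of 19 measured genes and higher in 0, 31.6% against 1.53% of all genes, with a median difference of -0.54. Mpo, the myeloperoxidase gene, gave 10.29, 10.96 and 10.91 in CLP and 13.04, 12.79 and 13.19 in PreGM GFP-. The groups did not overlap and differed 4.87-fold (adjusted p = 5.09e-06). LMPP were at 11.33, not called to differ from CLP (adjusted p = 0.322) and lower than PreGM GFP- (adjusted p = 0.000322). Ctsg, the cathepsin G gene, gave 7.97, 8.44 and 7.0 in CLP and 11.43, 11.22 and 11.46 in PreGM GFP-, an 11.9-fold difference (adjusted p = 3.89e-06).

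Elane, the neutrophil elastase gene, was 4.51-fold lower (6.64, 6.90 and 6.56 against 8.72, 8.30 and 9.61, adjusted p = 3.13e-06). Prtn3, the proteinase 3 gene, was 3.90-fold lower (7.86, 7.69 and 6.25 against 9.26, 9.29 and 9.13, adjusted p = 0.000317). Ms4a3 gave 5.78, 6.32 and 6.0 in CLP and 10.09, 9.0 and 10.23 in PreGM GFP-. The difference was -3.74 ± 0.29 log2 units (SE, adjusted p = 3.92e-08), with CLP and LMPP (6.08) below the median signal. Calr, the gene of a chaperone found in all cells, was 1.46-fold lower (adjusted p = 0.0308), a call lost without CLP array 1 or 3 or PreGM GFP- array 1 or 3. Without single arrays the list count ran from 5 to 7.

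Of 19 late neutrophil granule genes 2 were lower and 0 higher, 10.5% against 1.53% of all genes. Of the 19 differences 18 were negative, with a median of -0.48. Pglyrp1, a peptidoglycan recognition protein gene, was 2.51-fold lower (adjusted p = 0.000867). Hp, the haptoglobin gene, gave 6.52, 6.51 and 6.12 in CLP, a mean below the median signal, and 9.17, 7.91 and 8.74 in PreGM GFP- (-2.22 ± 0.29, SE, adjusted p = 6.62e-05). Of 5 genes of the NADPH oxidase 0 were called by limma and 1 had an unadjusted p under 0.05, and the median difference was 0.16.

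Receptors and regulators of the myeloid branch differed in some members and not in others. Csf3r, the G-CSF receptor gene, gave 6.91, 7.24 and 7.05 in CLP and 8.54, 8.13 and 8.51 in PreGM GFP-. It was 2.50-fold lower with no overlap (adjusted p = 9.30e-06), and LMPP were at 8.84. Csf1r, the M-CSF receptor gene, gave 8.08, 7.97 and 7.21 in CLP and 8.52, 7.13 and 8.05 in PreGM GFP-. These overlapped, and Csf1r was not called (-0.14 ± 0.29, SE, adjusted p = 0.964). The GM-CSF receptor genes Csf2ra (0.10) and Csf2rb (0.06) and the IL-3 receptor gene Il3ra (0.07) were not called either. Kit and Csf3r were the 2 called of 17 in this list, 11.8% against 1.53% of all genes, and Kit was part of both sort gates.

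Of 24 myeloid transcription factors 3 were lower and 1, Irf8, was higher, 16.7% called against 1.53% of all genes. Cebpa, the gene of C/EBP alpha, gave 7.55, 8.02 and 7.72 in CLP and 9.14, 8.80 and 9.36 in PreGM GFP-. It was 2.53-fold lower with no overlap (adjusted p = 0.000334), with LMPP between them at 8.37. Spi1, the PU.1 gene, gave 7.85, 7.55 and 7.52 in CLP and 8.63, 7.58 and 8.07 in PreGM GFP-. These overlapped, and it was not called (-0.45 ± 0.32, SE, adjusted p = 0.802). Tfec, a factor gene of the MITF family, gave 6.37, 6.52 and 6.0 in CLP and 9.88, 7.72 and 9.57 in PreGM GFP- (-2.76 ± 0.46, SE, adjusted p = 0.00104), with the CLP mean below the median signal. Gfi1 (-0.01), Runx1 (-0.27), Myb (-0.17) and Klf4 (0.38) were not called.

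Genes of other lineages were mostly lower in CLP where they differed. Of 21 stem cell genes 3 were lower and 0 higher, 14.3% against 1.53% of all genes. Hlf, a stem cell transcription factor gene, gave 7.15, 7.67 and 7.54 in CLP and 9.13, 8.47 and 8.86 in PreGM GFP-, beside 10.52 in LMPP. It was 2.57-fold lower (adjusted p = 3.87e-05), and both groups were lower than LMPP (adjusted p = 3.93e-11 for CLP and 2.22e-06 for PreGM GFP-). Angpt1, a ligand gene of the TIE2 receptor, was 5.81-fold lower (7.05, 7.26 and 8.33 against 10.12, 9.94 and 10.20, adjusted p = 2.80e-05). Meis1, a homeobox partner gene of HOX factors, was 2.10-fold lower (adjusted p = 0.0332), a call lost without CLP array 1 or 2 or PreGM GFP- array 1 or 3.

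Of 16 erythroid genes 3 were lower and 1 higher, 25.0% called against 1.53% of all genes. Nfe2, an erythroid and megakaryocyte factor gene, gave 6.21, 6.56 and 7.0 in CLP and 9.13, 8.71 and 8.52 in PreGM GFP- (-2.20 ± 0.24, SE, adjusted p = 3.44e-06). Car2, the carbonic anhydrase 2 gene, was also lower (-2.20, adjusted p = 9.59e-06), and in both the CLP mean was below the median signal. Lmo2 was 2.28-fold lower (adjusted p = 3.56e-06), and Tfrc, the transferrin receptor gene, 2.48-fold higher in CLP (adjusted p = 0.000866). Of 13 megakaryocyte genes and of 17 stroma and endothelium genes 0 were called by limma, and 0 and 2 had an unadjusted p under 0.05. Of 20 genes of mast cells, basophils and eosinophils 3 were lower, 15.0% against 1.53% of all genes. These were the carboxypeptidase gene Cpa3 (-3.01, adjusted p = 0.000325), the basophil protease gene Mcpt8 (-2.34, adjusted p = 0.00087) and Slc18a2, an amine transporter gene (-1.89, adjusted p = 3.04e-06). All 3 had CLP means below the median signal. Cpa3 varied within PreGM GFP-, at 9.75, 7.52 and 8.49.

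Lists of cell state differed in growth genes. All 20 genes of ribosome biogenesis and Myc had negative differences, with a median of -0.37, and 4 were called lower. Myc gave 10.32, 10.72 and 10.85 in CLP and 11.68, 11.45 and 11.72 in PreGM GFP-, with no overlap and a 1.98-fold difference (adjusted p = 0.0033). Wdr12, a ribosome assembly gene, was 1.96-fold lower (adjusted p = 0.000149). Srm, the spermidine synthase gene, was 2.50-fold lower (adjusted p = 0.0403), a call lost without any 1 of the CLP arrays or PreGM GFP- array 1. Of 13 glycolysis genes 4 were lower and 0 higher, 30.8% against 1.53% of all genes, with a median of -0.53. Hk3, a hexokinase gene of myeloid cells, was 2.56-fold lower (adjusted p = 0.000299), and the aldolase gene Aldoa 2.19-fold (adjusted p = 0.000479). Pgam1, a phosphoglycerate mutase gene, lost its call (adjusted p = 0.0244) without CLP array 1 or 3 or PreGM GFP- array 1, which left 3 genes called.

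Of 23 genes of the G2 and M phases 0 were called by limma and 6 had an unadjusted p under 0.05, and 22 differences were positive, with a median of 0.52. The list mean was 9.33, 9.47 and 9.16 in CLP and 9.10, 8.40 and 8.93 in PreGM GFP-, so PreGM GFP- array 2 stood lowest. Of 25 S phase genes, 12 BCL2 family genes, 17 interferon response genes and 19 immediate early genes 0 were called as well, with medians of 0.06, 0.09, 0.09 and 0.10. In these lists 2, 0, 3 and 1 genes had an unadjusted p under 0.05. Over all genes 1857 had an unadjusted p under 0.05.

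**Figure D5:**
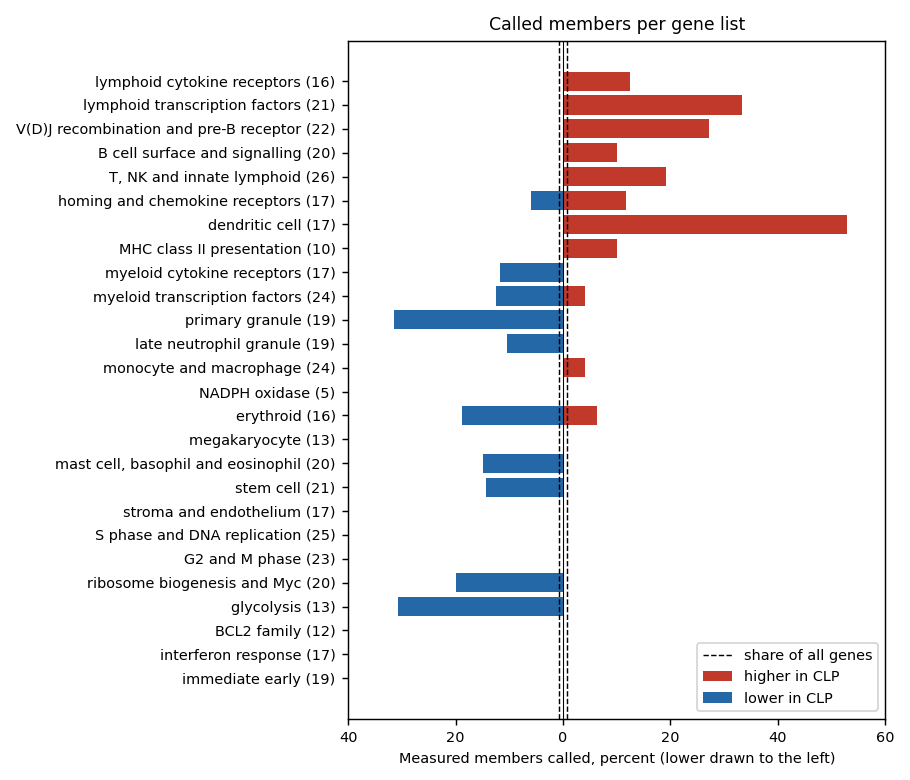
Percent of the measured members of each gene list called higher (red, to the right) or lower (blue, to the left) in CLP, with the number of members measured in brackets; dashed lines mark the shares over all genes, 0.742% higher and 0.787% lower. Dendritic cell genes reach 52.9%, lymphoid transcription factors 33.3% and primary granule genes 31.6%. The lists were chosen with earlier results of these data known.

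Some of the largest differences lay outside the lists. Cmah, an enzyme gene that modifies sialic acid, gave 9.90, 9.90 and 10.50 in CLP and 7.01, 6.11 and 6.23 in PreGM GFP-, with LMPP at 7.87. It was higher by 3.65 ± 0.29 log2 units (SE, adjusted p = 4.06e-08), from a PreGM GFP- mean below the median signal. Myl10, a myosin light chain gene, was 6.30-fold higher (adjusted p = 1.32e-05), at 10.92, 11.18 and 11.20 in CLP against 8.82, 8.10 and 8.41. LMPP were at 10.45, from which CLP were not called to differ (adjusted p = 0.443), and PreGM GFP- were lower than LMPP (-2.01, adjusted p = 0.000506). Kmo, an enzyme gene of tryptophan breakdown, was 6.85-fold higher (adjusted p = 0.00136) with wide spread in both groups, 10.79, 9.85 and 8.54 against 8.38, 5.88 and 6.58. Gbp8, of the guanylate-binding protein family, was higher by 2.87 ± 0.39 log2 units (SE, adjusted p = 9.92e-05), at 7.76, 9.46 and 8.09 against 6.46, 5.25 and 4.99, with a PreGM GFP- mean below the median signal. Slc44a1, a choline transporter gene, was weakly supported (2.42 log2 units, adjusted p = 0.0367). Its call was lost without CLP array 1 or 2 or PreGM GFP- array 2, and the mean of its 2 probe sets differed by 1.48.

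On the lower side, Cd63, a tetraspanin gene of granules and endosomes, gave 7.58, 5.38 and 6.6 in CLP and 10.61, 10.15 and 10.56 in PreGM GFP-, with LMPP at 10.29. It differed by -3.92 ± 0.32 log2 units (SE, adjusted p = 5.80e-08), with a CLP mean below the median signal. Muc13, a membrane mucin gene, was 9.35-fold lower (7.02, 7.43 and 7.84 against 10.90, 10.19 and 10.88, adjusted p = 3.92e-08). Atxn1 was lower in CLP (adjusted p = 0.00488), but its CLP arrays ran from 3.88 to 7.02 with a mean below the median signal. Its call was lost with array weights and, like the calls of other genes given above, on the 6 arrays alone. The mean of its 2 probe sets differed by -2.46. Anxa3, an annexin gene (-3.10), Cxcr2, a neutrophil chemokine receptor gene (-3.01), Myct1 (-2.67) and Rab38, a vesicle transport gene (-2.53), had CLP means below the median signal and adjusted p-values of 2.34e-06, 0.000174, 0.000149 and 1.91e-06. In Anxa3, Ctsg, Cxcr2, Ms4a3 and Tfec the highest mean of the 8 groups was that of reporter-negative granulocyte-macrophage progenitors.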

How the data were processed

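RNA of sorted cells was extracted with a micro-scale column kit and hybridised to Affymetrix Mouse Gene 1.1 ST arrays, per the labels. The authors deposited log2 signals, 1 per probe set and array, made by RMA with oligo per the submitters' processing notes; base 2 is taken from their range. RMA evens out arrays, so differences in total RNA per cell are not kept. Where a gene had more than 1 probe set (999 genes), that of highest mean was used. A linear model with 1 coefficient for each of 8 groups was fitted to the 26 arrays in limma 3.58.1 (R 4.3.3), which pools the spread over groups, and p-values were adjusted over 19938 genes. The fit was tested on simulated data.

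Named genes are the 12 largest differences each way among called genes whose arrays do not overlap, up to 6 called genes per list, and transcription factors, cytokine receptors, sort markers and sex-linked genes of the lists; symbols that are only model or clone names were passed over. Others are named as chosen after their values were seen. The members and lists were chosen with earlier results of these data known. Fcmr was matched under its older symbol Faim3.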

Additional observations from a re-analysis of the deposited data

Results flagged for a closer look

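Of the 75 genes followed by array, 6 had 1 LMPP array of 4 far from the rest; such a rule marks about 5% of groups by chance. In 4 of them that array was the lowest: Il7r at 5.554 (the others 6.477 to 6.6), Ccr9 at 5.345 (6.129 to 6.206), Itgax at 6.166 (6.493 to 6.548) and Kit at 10.176 (10.285 to 10.306). In 2 it was the highest: Cd300c at 7.678 (7.442 to 7.481) and Mpeg1 at 8.579 (8.263 to 8.314). The LMPP arrays do not enter the difference between CLP and PreGM GFP- except through the pooled spread.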

How the results depend on the processing

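No direction of a followed gene turned under any setting. All 75 followed genes had been picked as called in the main fit, and several settings leave the difference itself unchanged. The kept directions are therefore no further support. The counts of 148 genes higher and 157 lower became 35 and 57 on the 6 arrays alone. That fit has fewer residual degrees of freedom and does not pool the spread of the other groups. With arrays weighted by precision the counts were 63 and 72, from an estimate that stopped before full convergence. The weights were 0.383, 0.364 and 0.483 for PreGM GFP- arrays 1, 2 and 3 and 1.57, 0.866 and 0.786 for the CLP arrays. What lowered these counts was not tested. When tested against a difference of 1 log2 unit, 13 genes were higher and 17 lower. Leaving out single arrays gave 98 to 162 higher and 99 to 207 lower. The other settings gave 110 to 190 higher and 138 to 196 lower. Deviations of same-numbered arrays correlated at 0.118, 0.0205 and 0.141 and of unlike-numbered ones at -0.161 to 0.0571; CLP array 2 did not correlate best with its own number, and the numbers were not taken to pair samples. With the replicate block 135 genes were higher and 150 lower. The 24 genes of largest difference had been taken as called and not overlapping in the main fit. Of them 23 were called without each array in turn, the exception being Slc44a1. Under all planned settings but the test against 1 log2 unit, 18 of the 24 were called. Signals under 6.61 give no fold.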

Other observations

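Gene families picked out after their values were seen held further differences. Over all genes 0.742% were called higher in CLP and 0.787% lower. Because the families were picked by their values, their counts are not a test of them. Of 8 guanylate-binding protein genes, which act in cell defence against intracellular microbes, 3 were higher in CLP: Gbp8 (2.87), Gbp4 (2.40, adjusted p = 1.39e-06) and Gbp9 (1.84, adjusted p = 0.000218), all from PreGM GFP- means below the median signal. Gbp3 (-0.06) and Gbp7 (-0.61) were not called. Of 8 genes of the Gimap family of lymphocyte GTPases, Gimap7 (2.20, adjusted p = 4.13e-05) and Gimap4 (1.93, adjusted p = 6.55e-05) were higher, also from PreGM GFP- means below the median signal. Of 10 Toll-like receptor genes, Tlr7 (1.60, adjusted p = 0.00111) and Tlr9 (0.60, adjusted p = 0.00603), whose proteins sense nucleic acids, were higher, again from such means.

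Of 7 interferon-induced transmembrane genes, a family picked in the same way, 3 were lower in CLP. Ifitm1 was at 9.24 ± 0.42 in CLP and 11.14 ± 0.18 in PreGM GFP- (SD, n = 3), with LMPP at 11.41 (adjusted p = 1.91e-06). Ifitm2 (-1.43, adjusted p = 0.000538) and Ifitm3 (-0.86, adjusted p = 0.000419) were lower too. Cd34, a progenitor surface gene, was at 9.45, 9.65 and 10.12 in CLP and 11.39, 11.07 and 11.28 in PreGM GFP- (adjusted p = 0.00343), with LMPP arrays at 11.15 to 11.61. Ikzf2, the Helios gene, was also lower, at 7.26, 7.31 and 6.97 in CLP and 9.12, 8.97 and 9.43 in PreGM GFP- (adjusted p = 2.65e-06).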
